A study of Bos taurus with 8 samples.

Results

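BTG4 and 9 subunits of the CCR4-NOT deadenylase, the machinery that strips poly(A) tails from stored egg mRNA, were followed across 3 groups of eight-cell cattle embryos. The members are the rows of the expression files whose symbol is BTG4, CNOT1, CNOT2, CNOT3, CNOT6, CNOT6L, CNOT7, CNOT8, CNOT10 or CNOT11, so they are 10 of the 21258 features. Each library came from a pool of 8 Holstein embryos. IVF embryos were made by fertilisation in vitro (3 libraries). SCNT embryos were clones made by somatic cell nuclear transfer, in which the nucleus of a body cell replaces that of the egg, and carried no KDM4E overexpression (3 libraries). KDM4E-SCNT embryos were clones that overexpressed KDM4E, a demethylase of histone H3 lysine 9 (2 libraries). The submitters set both other groups against SCNT. Donor cells, the way KDM4E was overexpressed and the hour of collection are not in the labels, nor is any link between a pool and a collection batch, so p-values measure only the spread between these libraries, which may be technical.

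Before its own genome becomes active, an embryo relies on mRNA that the egg made and stored. That mRNA is later cleared, and shortening of its poly(A) tail by CCR4-NOT is a main route. In this complex CNOT1 is the scaffold, CNOT2 and CNOT3 form its NOT module, and CNOT10 and CNOT11 form a module at its other end. The tail is cut by 2 kinds of nuclease, CNOT7 or its close relative CNOT8, and CNOT6 or its close relative CNOT6L. BTG4 belongs to the BTG and TOB family of adaptors, is made mainly in the egg and early embryo, and links CNOT7 and CNOT8 to the mRNA to be cleared. Transcript levels were measured here, not tail lengths, protein or deadenylase activity.

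Relative depth could be read from 1 measure only, and absolute depth is not given. Among features with 1 transcript and low values, the commonest ratio to IVF replicate 1 lay in the log2 bin at 0 for 5 libraries and at -0.1 for 2. FPKM is the number of fragments scaled by transcript length and by the mapped fragments of the library. Levels of different genes are set side by side on this scale only. Differences between genes in poly(A) tailing, amplification or read assignment are not corrected by it and were not tested. Between 10975 and 13050 features per library stood at 1 FPKM or more. No row has the symbol KDM4E. The row LOC524768, described as KDM4C-like and of uncertain identity, stood at 25.4 to 33.9 FPKM in SCNT, at 102 and 206 in KDM4E-SCNT and at 88.3 to 109 in IVF. All 13 oocyte and cleavage-embryo markers with a row averaged at least 1 FPKM in every group, and their sum was 1561 to 2215 FPKM in SCNT, 5453 and 7443 in KDM4E-SCNT and 8769 to 9952 in IVF. In limma all 13 were higher in IVF against SCNT and 12 of 13 in KDM4E-SCNT against SCNT. Over all features tested, 34.9% were called higher and 23.6% lower in IVF against SCNT, and 21.6% and 11% in KDM4E-SCNT against SCNT. Summed fibroblast markers (13 with a row) were 101 to 172 FPKM in SCNT, 85.9 and 376 in KDM4E-SCNT and 24.2 to 48.1 in IVF, with THY1 listed at 0 in every SCNT library and TAGLN in every IVF library, and of 11 tested 1 was called higher and 4 lower in IVF against SCNT. Summed cumulus and granulosa markers (10 with a row) were 31.6 to 40.6, 74.2 and 131, and 125 to 215 FPKM in the same order of groups, with FSHR listed at 0 in every SCNT and KDM4E-SCNT library, PTX3 in every SCNT library and AMH in every IVF library, and of 5 tested 4 were called higher and 1 lower in IVF against SCNT. Summed sperm markers (7 with a row) were 7.54 to 8.36, 44.4 and 53.5, and 67.4 to 91.6 FPKM, with TNP2 listed at 0 in every IVF and KDM4E-SCNT library, TNP1 in every IVF library, and AKAP4 and ODF1 in every SCNT library. LDHC alone made up most of that sum in every library, at 4.51 to 5.73 FPKM in SCNT, 39.34 and 45.25 in KDM4E-SCNT and 59.61 to 80.85 in IVF. Of 5 sperm markers tested, 3 were called higher and 0 lower in IVF against SCNT, and 2 higher and 0 lower in KDM4E-SCNT. Summed blood markers (6 with a row) were 37.2 to 72.9, 29.4 and 44.2, and 12.7 to 18.4 FPKM, of which HBA made up 35.7 to 68.9, 24.4 and 38.1, and 4.85 to 7.64 FPKM. Of 5 blood markers tested, 3 were called higher and 1 lower in IVF against SCNT, so the sum does not follow most of its genes, and HBB was listed at 0 in both KDM4E-SCNT libraries. The part of any of these markers in the members' differences was not tested. In pools of embryos, fewer cells and less RNA per cell cannot be told apart.

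BTG4 was among the most abundant transcripts of all. It ranked 2nd of all features in every IVF library, 3rd in both KDM4E-SCNT libraries, and 12th to 21st in SCNT. The gene (ENSBTAG00000034346.2) lies on chromosome 15 from 22105614 to 22120867 in build UMD3.1, and its value combines 10 transcripts. In IVF replicates 1 to 3 it stood at 22629, 26548 and 18516 FPKM, which was 3.05%, 3.78% and 2.52% of all FPKM. In SCNT replicates 1 to 3 it stood at 3269, 7818 and 5207 FPKM, or 0.387%, 0.927% and 0.641%. The KDM4E-SCNT libraries had 16017 and 18165 FPKM, or 1.99% and 2.41%. Every SCNT library was thus below every other library, and both KDM4E-SCNT libraries were below the lowest IVF library.

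BTG4 was 4.37-fold higher in IVF than in SCNT on the log2(FPKM + 1) scale used for all tests (log2 difference 2.13 ± 0.29 SE, limma adjusted p = 5.63e-05). With KDM4E it was 3.34-fold higher than in SCNT (1.74 ± 0.32, adjusted p = 0.00236). Both calls held under all 18 alternative settings, with differences of 1.68 to 2.44 and 1.27 to 2.05. The difference KDM4E-SCNT minus IVF was -0.39 ± 0.32 (adjusted p = 0.549), and its 95% interval of -1.08 to 0.31 holds both equal levels and a lower level with KDM4E.

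**Figure D1:**
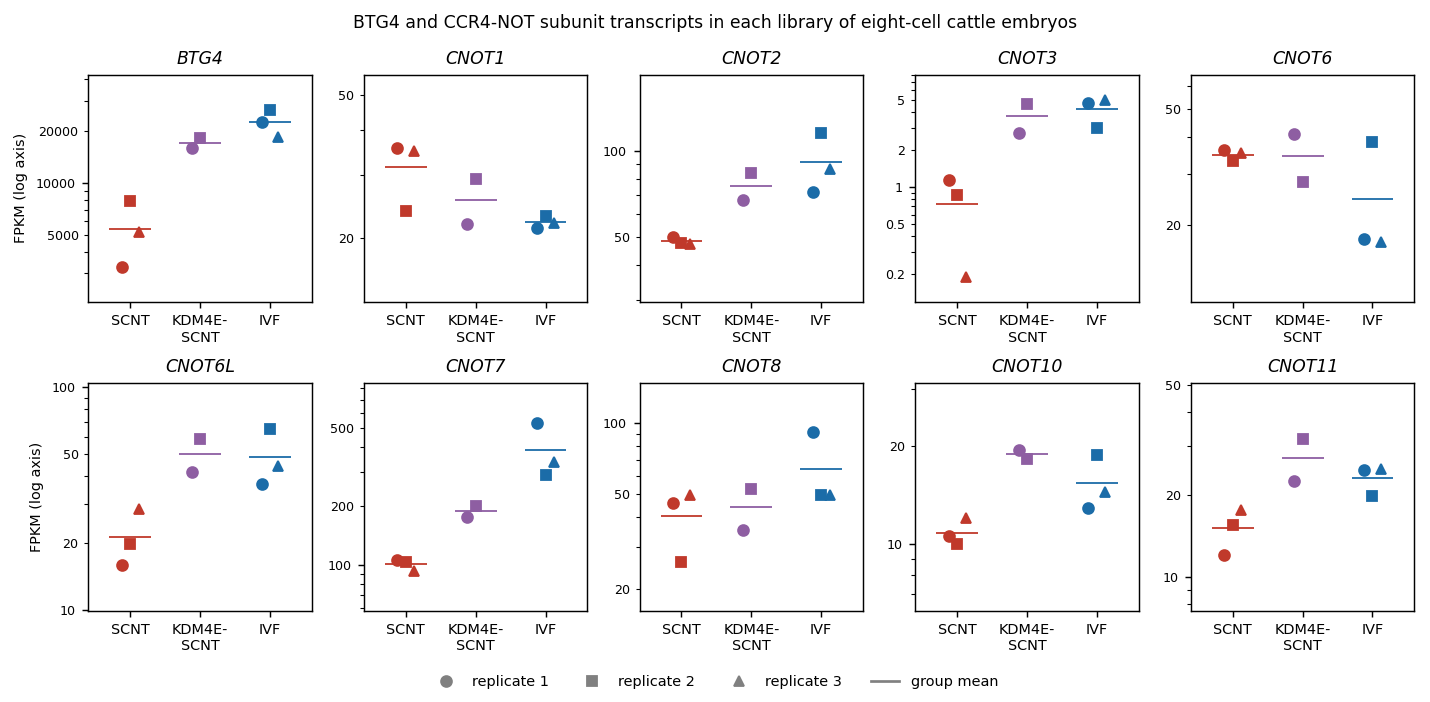
FPKM of BTG4 and the 9 CCR4-NOT subunits in each library (log axes, which differ between panels), by group, with replicates as symbols and group means as lines. BTG4 and CNOT7 are lowest in SCNT and highest in IVF, CNOT6L is low in SCNT only, and CNOT1 and CNOT6 have their lowest values in IVF.

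CNOT7, the nuclease that BTG4 binds, was the most abundant subunit in each of the 8 libraries and differed between IVF and SCNT by more than any other subunit on the log2(FPKM + 1) scale, though with a pseudocount of 0.1 the low CNOT3 differed by more (2.601 against 1.891). It stood at 531, 290 and 337 FPKM in IVF, at 106, 103 and 93.0 FPKM in SCNT, and at 176 and 200 FPKM in KDM4E-SCNT. The groups did not overlap, with KDM4E-SCNT between the other two. IVF exceeded SCNT by 1.88 ± 0.28 (3.69-fold, adjusted p = 0.000103), a call that held under all 18 alternatives. The KDM4E-SCNT difference from SCNT was smaller (0.89 ± 0.31, adjusted p = 0.0411) and lost its call under 11 of 18 alternatives, with adjusted p from 0.0246 to 0.305. KDM4E-SCNT was 0.99 ± 0.31 below IVF (95% interval -1.65 to -0.32, unadjusted p = 0.007), which did not pass over all features (adjusted p = 0.0824). That difference passed under quantile normalization (adjusted p = 0.0322) and without IVF replicate 2 (adjusted p = 0.0499).

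CNOT8, which can take the place of CNOT7, showed no called difference. Its levels were 91.5, 49.9 and 49.9 FPKM in IVF, 46.1, 26.0 and 49.8 in SCNT, and 35.4 and 52.9 in KDM4E-SCNT. IVF replicate 1 was far above the rest, and the other IVF values barely exceeded SCNT replicate 3. The differences were 0.63 ± 0.35 for IVF minus SCNT (adjusted p = 0.136) and 0.14 ± 0.39 for KDM4E-SCNT minus SCNT (adjusted p = 0.802), the latter with a 95% interval of -0.70 to 0.99.

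CNOT6L and CNOT6, the other pair of nucleases, did not move alike. CNOT6L stood at 36.6, 65.2 and 44.5 FPKM in IVF, at 15.9, 19.7 and 28.5 in SCNT, and at 41.4 and 58.9 in KDM4E-SCNT. Every SCNT library was below every other one. The IVF level was 2.22-fold that of SCNT (1.15 ± 0.33, adjusted p = 0.00907), a call lost under median-ratio scaling (0.72, adjusted p = 0.0793). The KDM4E-SCNT level was 2.31-fold that of SCNT (1.21 ± 0.37, adjusted p = 0.0241). That call was lost without SCNT replicate 1 (adjusted p = 0.0829), SCNT replicate 2 (0.0518) or KDM4E-SCNT replicate 2 (0.179), and under median-ratio (0.134) and upper-quartile scaling (0.0867). The difference KDM4E-SCNT minus IVF was 0.06 ± 0.37 (95% interval -0.73 to 0.85).

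CNOT6 stood at 17.98, 38.6 and 17.6 FPKM in IVF, at 36.1, 33.1 and 35.4 in SCNT, and at 40.9 and 28.2 in KDM4E-SCNT. A pair of IVF libraries was below all others, while IVF replicate 2 was among the highest. IVF minus SCNT was -0.57 ± 0.34 (adjusted p = 0.161), and -0.93 without IVF replicate 2 (adjusted p = 0.0198). KDM4E-SCNT minus SCNT was -0.03 ± 0.38 (95% interval -0.85 to 0.79, adjusted p = 0.955).

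The share of CNOT6L in the summed FPKM of CNOT6 and CNOT6L was 67.1%, 62.8% and 71.7% in IVF, and 30.6%, 37.4% and 44.6% in SCNT. It was 50.3% and 67.6% in KDM4E-SCNT. CNOT6 was thus the more abundant of the pair in each SCNT library, and CNOT6L in each IVF library and in KDM4E-SCNT replicate 2. In KDM4E-SCNT replicate 1 the pair was nearly equal, at 41.4 FPKM for CNOT6L and 40.9 for CNOT6. The ratio of the pair is formed within a library and does not move with the library's scaling, apart from the pseudocount. Its log2 value, CNOT6L over CNOT6, was 1.72 higher in IVF than in SCNT, with no overlap (exact permutation test, two-sided p = 0.1, adjusted over 6 ratio comparisons p = 0.3). Such a test of 3 against 3 libraries cannot go below 0.1. It was 1.24 higher in KDM4E-SCNT than in SCNT (exact p = 0.2, the smallest that 2 against 3 allows) and differed from IVF by -0.48 (exact p = 0.6).

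The share of CNOT7 in the sum of CNOT7 and CNOT8 was 85.3%, 85.3% and 87.1% in IVF, 69.6%, 79.9% and 65.1% in SCNT, and 83.3% and 79.1% in KDM4E-SCNT. CNOT7 was the main transcript of this pair in every library. The log2 ratio of CNOT8 to CNOT7 differed by -1.25 between IVF and SCNT (exact permutation p = 0.1), by -0.75 between KDM4E-SCNT and SCNT (exact p = 0.4) and by 0.50 between KDM4E-SCNT and IVF (exact p = 0.2). How reads that match both members of a pair were assigned is not given in the sources used here.

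**Figure D2:**
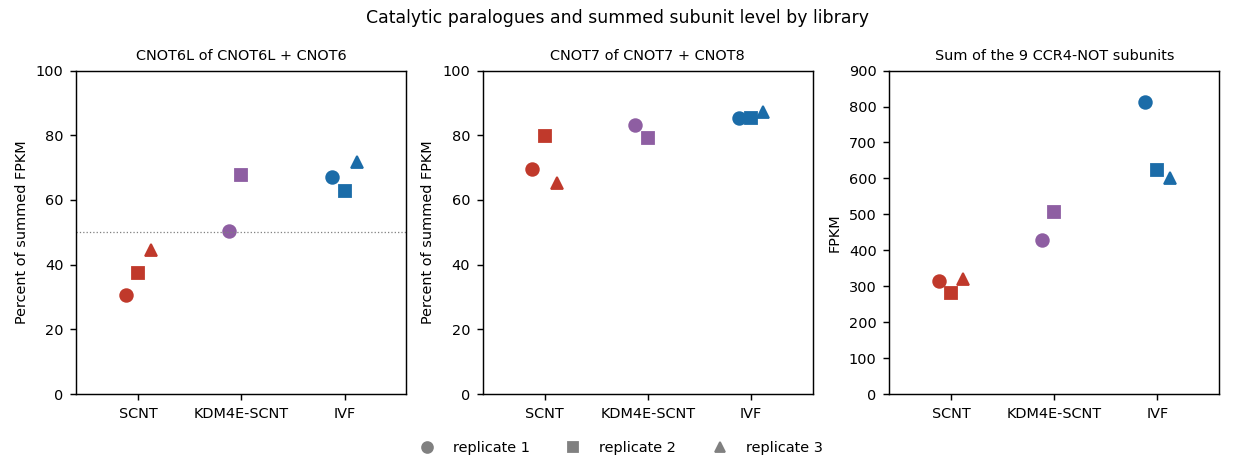
Share of CNOT6L in CNOT6L plus CNOT6 and of CNOT7 in CNOT7 plus CNOT8 (percent of summed FPKM), and the summed FPKM of the 9 subunits, by library. The CNOT6L share is 30.6% to 44.6% in SCNT and 62.8% to 71.7% in IVF, on opposite sides of the dotted line that marks equal levels.

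In the NOT module, CNOT2 and CNOT3 were both higher in IVF than in SCNT, and CNOT3 also with KDM4E. CNOT3, the rarest of the 10, stood at 4.77, 2.98 and 5.04 FPKM in IVF, at 1.14, 0.86 and 0.19 in SCNT and at 2.71 and 4.71 in KDM4E-SCNT. The SCNT libraries lay below all others, close to or under the 1 FPKM used as a filter. CNOT3 was higher than in SCNT by 1.62 ± 0.38 in IVF (adjusted p = 0.00257) and by 1.45 ± 0.42 in KDM4E-SCNT (adjusted p = 0.0195). The KDM4E-SCNT call was lost under quantile normalization (adjusted p = 0.0733), without SCNT replicate 3 (0.0739) and without KDM4E-SCNT replicate 2 (0.159).

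CNOT2 was even in SCNT, at 50.1, 47.6 and 47.4 FPKM, and higher in each of the other libraries, at 72.2, 116 and 86.4 FPKM in IVF and 67.2 and 83.8 in KDM4E-SCNT. IVF exceeded SCNT by 0.88 ± 0.27 (adjusted p = 0.0147). That call was lost under median-ratio scaling (0.44, adjusted p = 0.192) and upper-quartile scaling (0.61, adjusted p = 0.0761). KDM4E-SCNT minus SCNT was 0.62 ± 0.31 (adjusted p = 0.131).

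CNOT1, the scaffold on which the other subunits sit, stood at 21.3, 23.1 and 22.2 FPKM in IVF, at 35.7, 23.9 and 34.9 in SCNT, and at 21.9 and 29.3 in KDM4E-SCNT. IVF values were close together and all below SCNT, though IVF replicate 2 and SCNT replicate 2 nearly met. IVF minus SCNT was -0.47 ± 0.29 (adjusted p = 0.181), and KDM4E-SCNT minus SCNT was -0.28 ± 0.32 (adjusted p = 0.522). With median-ratio or upper-quartile scaling of the libraries CNOT1 was called lower in IVF (-0.90, adjusted p = 0.0178, and -0.73, adjusted p = 0.0445), as was CNOT6 with median-ratio scaling (-1.005, adjusted p = 0.0283).

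CNOT10 and CNOT11, which bind each other at the far end of CNOT1, did not pass in any comparison of the main fit. With 1 total per library CNOT11 was called higher in IVF than in SCNT (0.79, limma adjusted p = 0.0419). CNOT10 was 12.9, 18.8 and 14.5 FPKM in IVF, 10.6, 9.97 and 11.98 in SCNT, and 19.5 and 18.3 in KDM4E-SCNT. CNOT11 was 24.6, 19.7 and 24.9 FPKM in IVF, 12.1, 15.5 and 17.6 in SCNT, and 22.4 and 31.8 in KDM4E-SCNT. For both genes the SCNT values lay below all others. KDM4E-SCNT minus SCNT was 0.75 ± 0.33 for CNOT10 (95% interval 0.05 to 1.46, adjusted p = 0.0919) and 0.80 ± 0.33 for CNOT11 (0.09 to 1.52, adjusted p = 0.0788). IVF minus SCNT was 0.46 ± 0.29 (adjusted p = 0.194) and 0.59 ± 0.30 (adjusted p = 0.101).

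Counted over the 10 members, 5 were higher in IVF than in SCNT (BTG4, CNOT7, CNOT3, CNOT6L and CNOT2), 0 were lower and 5 did not pass. Over all 14839 features tested, 58.5% were called, 34.9% as higher and 23.6% as lower, so a share of 5 in 10 called is near the background. The libraries of the groups did not overlap for 9 of 10 members and for 64.4% of all features. The median difference was 0.76 over the 10 members, 0.63 over the 9 subunits and 0.39 over all features. Relative to that median over all features BTG4 was 1.73 and CNOT7 1.49 higher, and CNOT1 and CNOT6 were -0.86 and -0.97 from it. Scaling mattered for weaker members: median-ratio scaling moved the median over all features to 0.10, the calls over all features from 5182 higher and 3498 lower to 4142 and 4337, and the member calls to 3 higher (BTG4, CNOT3, CNOT7) and 2 lower (CNOT1, CNOT6).

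Between KDM4E-SCNT and SCNT, BTG4, CNOT3, CNOT6L and CNOT7 were called higher, 4 of 10, and 0 lower. Of all features 32.6% were called in this comparison, 21.6% as higher and 11% as lower, and the groups did not overlap for 7 of 10 members and for 59.5% of all features. The median was 0.78 over the members and 0.32 over all features. Without KDM4E-SCNT replicate 2, which leaves 1 library in that group, the differences were 1.14 for CNOT3, 0.96 for CNOT6L and 0.81 for CNOT7. The count of 4 moved with single libraries, being 2 without any 1 of the SCNT replicates. Calls over all features then also fell, from 32.6% to 22.2%, 29.6% and 22.6% without SCNT replicates 1, 2 and 3. Thus the count of members fell along with the calls over all features. The count of members was also 2 under median-ratio and upper-quartile scaling. These moved the median over all features to 0.02 and 0.10. They moved the calls over all features from 3208 higher and 1636 lower to 2099 and 2763, and 2365 and 2431. Both comparisons share the SCNT libraries, so their values for the members are given side by side and are not independent.

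In the direct comparison of KDM4E-SCNT with IVF, 0 of 10 members were called by limma, against 6.52% of all features (5.9% higher and 0.62% lower in KDM4E-SCNT). At an unadjusted p under 0.05 there was 1 member, CNOT7, against 19.7% of all features. The libraries of these groups did not overlap for 2 members, BTG4 and CNOT7, both lower in KDM4E-SCNT, and for 33.9% of all features. Intervals were wide, being -0.92 to 0.41 for CNOT2, -1.08 to 0.74 for CNOT3 and -0.28 to 1.36 for CNOT6, so a missed threshold does not show that levels were equal.

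**Figure D3:**
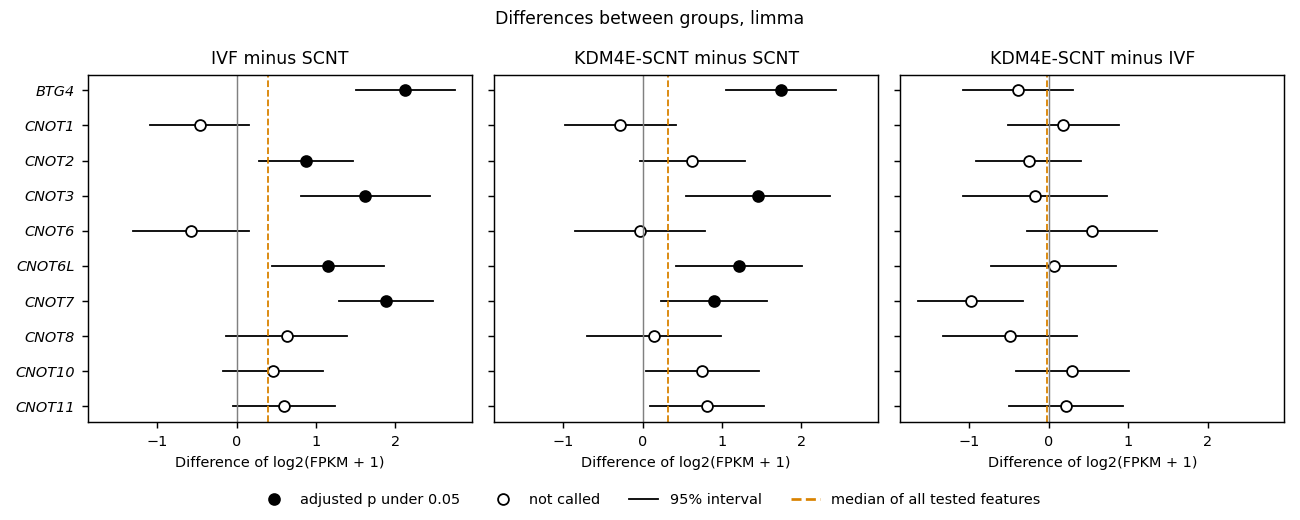
Differences of log2(FPKM + 1) with 95% intervals from limma for each member in the 3 comparisons. Filled points passed at an adjusted p under 0.05 and dashed lines mark the median over all 14839 features. BTG4 and CNOT7 lie furthest to the right in IVF minus SCNT, at 2.13 and 1.88, and no point is filled in KDM4E-SCNT minus IVF.

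On the FPKM scale the members fell into broad tiers. BTG4 was 30.9 to 91.7 times as abundant as CNOT7, with 90.8 and 90.9 in KDM4E-SCNT, a range of 42.6 to 91.7 over the IVF libraries and of 30.9 to 75.7 over the SCNT libraries, so SCNT and IVF overlapped in this ratio. CNOT7 came next, and CNOT2, CNOT8 and CNOT6L followed in IVF with overlapping ranges of 72.2 to 116, 49.9 to 91.5 and 36.6 to 65.2 FPKM. CNOT11, CNOT1 and CNOT6 overlapped each other at 17.6 to 38.6 FPKM in IVF. CNOT10 stood below these 3 and above CNOT3, which was last, in each of the 8 libraries. In SCNT CNOT2 and CNOT8 overlapped at 26.0 to 50.1 FPKM, CNOT6 and CNOT1 at 23.9 to 36.1, and CNOT6L came after both of these in every SCNT library. The 9 subunits summed to 602 to 813 FPKM in IVF, 280 to 319 in SCNT, and 428 and 508 in KDM4E-SCNT, without overlap between groups. CNOT7 alone made up 46.4% to 65.3% of that sum in IVF, 29.2% to 36.9% in SCNT, and 41.2% and 39.4% in KDM4E-SCNT. Without CNOT7 the sums were 265 to 334, 177 to 226, and 252 and 308 FPKM.

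A locus near CNOT6L was read separately in the files. The unannotated feature BGI_novel_G004052 on chromosome 6 (94237924 to 94243630, UMD3.1) begins 20251 bases past the end of the CNOT6L row (94177121 to 94217673) and is described as CNOT6-like. It stood at 2.70, 6.88 and 4.35 FPKM in IVF, 2.01, 1.22 and 2.88 in SCNT and 7.27 and 6.15 in KDM4E-SCNT, so its KDM4E-SCNT values exceeded every SCNT value. KDM4E-SCNT minus SCNT was 1.38 ± 0.42 (adjusted p = 0.0255) and IVF minus SCNT 0.86 ± 0.38 (adjusted p = 0.0646). Whether it belongs to the CNOT6L transcript was not tested. None of the 10 members overlapped another feature in the files' coordinates. The other members lie at chromosome 18, 26390076 to 26447574 (CNOT1), chromosome 5, 43361161 to 43494162 (CNOT2), chromosome 18, 63425206 to 63435541 (CNOT3), and chromosome 7, 493450 to 574753 (CNOT6). CNOT7 lies at chromosome 27, 19052444 to 19067489, CNOT8 at chromosome 7, 68039858 to 68057466, CNOT10 at chromosome 22, 7186642 to 7244947, and CNOT11 at chromosome 11, 6195078 to 6208423.

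The relatives of BTG4 went the other way. BTG1, BTG2, BTG3, TOB1 and TOB2 are adaptors that also bind CNOT7 or CNOT8 and are known as brakes on cell division in body cells. All 5 were lower in IVF than in SCNT (median -2.42), and 3 of 5 were lower in KDM4E-SCNT than in SCNT (median -1.70). For this list and those below, the shares called over all features were 34.9% higher and 23.6% lower in IVF minus SCNT. In KDM4E-SCNT minus SCNT they were 21.6% higher and 11% lower. BTG3 stood at 8.60, 7.95 and 6.49 FPKM in IVF, 105, 88.8 and 126 in SCNT and 57.4 and 17.4 in KDM4E-SCNT (IVF minus SCNT -3.63 ± 0.39, adjusted p = 1.06e-05). TOB1 stood at 43.5, 23.1 and 27.9 FPKM in IVF, 187, 324 and 196 in SCNT and 108 and 37.7 in KDM4E-SCNT (-2.87 ± 0.40, adjusted p = 6.9e-05). TOB2 differed by -2.42 ± 0.37 (adjusted p = 0.000147). In all 3 genes the SCNT libraries were highest and KDM4E-SCNT replicate 2 was nearer to IVF than replicate 1 was. Without KDM4E-SCNT replicate 2, which leaves 1 library, KDM4E-SCNT minus SCNT was -0.87 for BTG3, -1.08 for TOB1 and -1.12 for TOB2. With both libraries these differences were -1.70, -1.82 and -1.83. BTG4 was above each of these relatives in every library, by its lowest value of 3269 FPKM against their highest of 324.

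Further CCR4-NOT proteins were split. CNOT4, a ubiquitin ligase that binds the complex, was higher in IVF (89.2 to 95.4 FPKM) than in SCNT (33.4 to 42.2, difference 1.32 ± 0.25, adjusted p = 0.000757), with KDM4E-SCNT at 72.3 and 72.6. CNOT9, a subunit that binds CNOT1, was lower in IVF (4.89 to 9.57 FPKM) than in SCNT (16.9 to 26.4, -1.32 ± 0.41, adjusted p = 0.0139), a call lost without IVF replicate 2 (adjusted p = 0.0524) or SCNT replicate 1 (0.0587). TNKS1BP1 was under 1 FPKM in every library and did not pass the filter on low values. With no filter it was tested, and 2 of the 3 genes of this list, CNOT9 and TNKS1BP1, were called lower in IVF.

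Genes listed as deadenylases outside the complex also divided, though their activity was not tested. Of 6 tested, 4 were higher in IVF than in SCNT and 1 lower, with a median of 1.11. Counts were 3 higher and 2 lower under quantile normalization, median-ratio scaling and upper-quartile scaling. Of all features 55.1%, 57.1% and 57.7% were called in these settings. PARN, a poly(A)-specific nuclease, stood at 203, 343 and 211 FPKM in IVF, 18, 48.0 and 21.8 in SCNT and 114 and 171 in KDM4E-SCNT. Its difference was 3.15 ± 0.37 for IVF minus SCNT (adjusted p = 2.16e-05) and 2.35 ± 0.42 for KDM4E-SCNT minus SCNT (adjusted p = 0.002). ANGEL2 was higher in both by 1.52 ± 0.28 and 1.44 ± 0.32 (adjusted p = 0.000624 and 0.00566). NOCT, the nocturnin gene, stood at 9.68 to 20.3 FPKM in IVF, 146 to 194 in SCNT, and 106 and 70.7 in KDM4E-SCNT (-3.55 ± 0.32, adjusted p = 3.32e-06). KDM4E-SCNT was above IVF by 2.53 ± 0.36 (adjusted p = 0.00121).

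Of 19 tested RNA-binding proteins that recruit deadenylases, 6 were higher in IVF than in SCNT and 6 lower (median 0.49), and 3 were higher and 2 lower in KDM4E-SCNT than in SCNT (median 0.34). PABPN1L, a nuclear-type poly(A) binding protein of the egg known as a partner of BTG4, was higher in IVF by 3.18 ± 0.45 (adjusted p = 8.66e-05) and in KDM4E-SCNT by 2.59 ± 0.51 (adjusted p = 0.0032). Its levels were 77.5, 21.4 and 86.5 FPKM in IVF, 5.28, 5.89 and 3.79 in SCNT and 39.5 and 30.4 in KDM4E-SCNT. RC3H2, also called roquin-2, was lower in IVF (-2.79 ± 0.39 in IVF minus SCNT, adjusted p = 7.39e-05).

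Poly(A) binding proteins and their partners gave 2 higher and 4 lower of 8 in IVF against SCNT (median -0.22), and 3 higher and 3 lower in KDM4E-SCNT against SCNT (median -0.80). PABPC1, which coats the tail in the cytoplasm, stood at 37.5 to 98.4 FPKM in IVF, 563, 357 and 362 in SCNT, and 152 and 116 in KDM4E-SCNT (IVF minus SCNT -2.85 ± 0.35, adjusted p = 3e-05). PAIP1, which binds PABPC1, stood at 6621, 9967 and 7011 FPKM in IVF, 642, 1065 and 872 in SCNT, and 4192 and 6487 in KDM4E-SCNT (3.20 ± 0.27, adjusted p = 2.32e-06). PAIP2B, an inhibitor of PABPC1, was lower in IVF (-3.30 ± 0.31, adjusted p = 4.17e-06).

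Of 8 tested genes for storage and cytoplasmic polyadenylation of maternal mRNA, 5 were higher in IVF than in SCNT and 1 lower (median 1.51), and 4 were higher and 1 lower in KDM4E-SCNT (median 1.04). CPEB1, which binds the polyadenylation element of stored mRNA, stood at 684, 139 and 338 FPKM in IVF, 28.5, 30.9 and 37.7 in SCNT and 117 and 147 in KDM4E-SCNT (IVF minus SCNT 3.27 ± 0.45, adjusted p = 6.32e-05). DAZL was higher in IVF by 2.88 ± 0.58 (adjusted p = 0.000964) and the poly(A) polymerase PAPOLG by 1.77 ± 0.26 (adjusted p = 0.000109). The 1 lower gene was PAPD4, a cytoplasmic poly(A) polymerase (-1.86 ± 0.26, adjusted p = 8.27e-05).

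The 2 lists for later steps of decay differed from each other. Of 17 tested genes of decapping and 5' decay, 4 were higher in IVF than in SCNT and 5 lower (median -0.04). These counts were 2 and 6 under median-ratio scaling, and 2 and 5 under upper-quartile scaling. Within this list PATL2 (2.90 ± 0.38, adjusted p = 4.35e-05) and EIF4ENIF1 (2.04 ± 0.30, adjusted p = 0.000112) were higher and EDC3 (-2.65 ± 0.33, adjusted p = 3.27e-05) was lower. The part of each in decapping was not tested. Of 16 tested genes of uridylation and 3' decay, 1 was higher and 8 were lower (median -0.76), among them the uridyltransferase ZCCHC6 (-2.63 ± 0.30, adjusted p = 1.64e-05), DIS3L (-2.19 ± 0.35, adjusted p = 0.000218) and the exosome subunit EXOSC1 (-3.45 ± 0.37, adjusted p = 1.05e-05). In KDM4E-SCNT against SCNT these lists gave 2 higher and 2 lower, and 0 higher and 4 lower. The latter count was 1 lower without any 1 SCNT replicate, 1 with no filter and with the replicate block, and 7 under median-ratio scaling. Over all features 1636 were called lower in this comparison, and 999, 1489 and 1051 without SCNT replicates 1, 2 and 3. They were 1266 with no filter, 1402 with the replicate block and 2763 under median-ratio scaling. The decapping list gave 2 higher and 4 lower under median-ratio and upper-quartile scaling. Without KDM4E-SCNT replicate 2 the differences from SCNT were 1.43 for PATL2, 1.21 for EIF4ENIF1 and -1.30 for EDC3. They were -1.23 for ZCCHC6 and -0.56 for EXOSC1. With all libraries these 5 genes, in the same order, stood at 1.87, 1.61, -1.60, -1.52 and -1.32.

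Over all 81 pathway genes tested, 23 were higher and 31 lower in IVF than in SCNT, 66.7% called against 58.5% of all features (34.9% higher and 23.6% lower). In KDM4E-SCNT against SCNT 16 were higher and 16 lower, 39.5% against 32.6%. That even split moved with the scaling, to 10 higher and 28 lower under median-ratio scaling and 10 and 22 under upper-quartile scaling. KDM4E-SCNT and IVF differed in 5 of 81, or 6.17% against 6.52%, and in each of these, BTG3, NOCT, PAIP2B and EXOSC1 among them, KDM4E-SCNT was higher. Fewer KDM4E-SCNT calls against SCNT were made without KDM4E-SCNT replicate 2, here and over all features, in a fit with 1 such library. Without SCNT replicates 1, 2 and 3 these calls were 12 higher and 11 lower, 16 and 14, and 14 and 12. Over all features 22.2%, 29.6% and 22.6% were then called. Against IVF, 7 were higher and 1 lower without IVF replicate 2, when 6.1% of all features were called. With 1 library left out, KDM4E-SCNT minus IVF was 1.09 to 2.76 for BTG3 and 2.24 to 2.82 for NOCT. It was 1.22 to 1.52 for PAIP2B and 1.37 to 2.90 for EXOSC1.

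**Figure D4:**
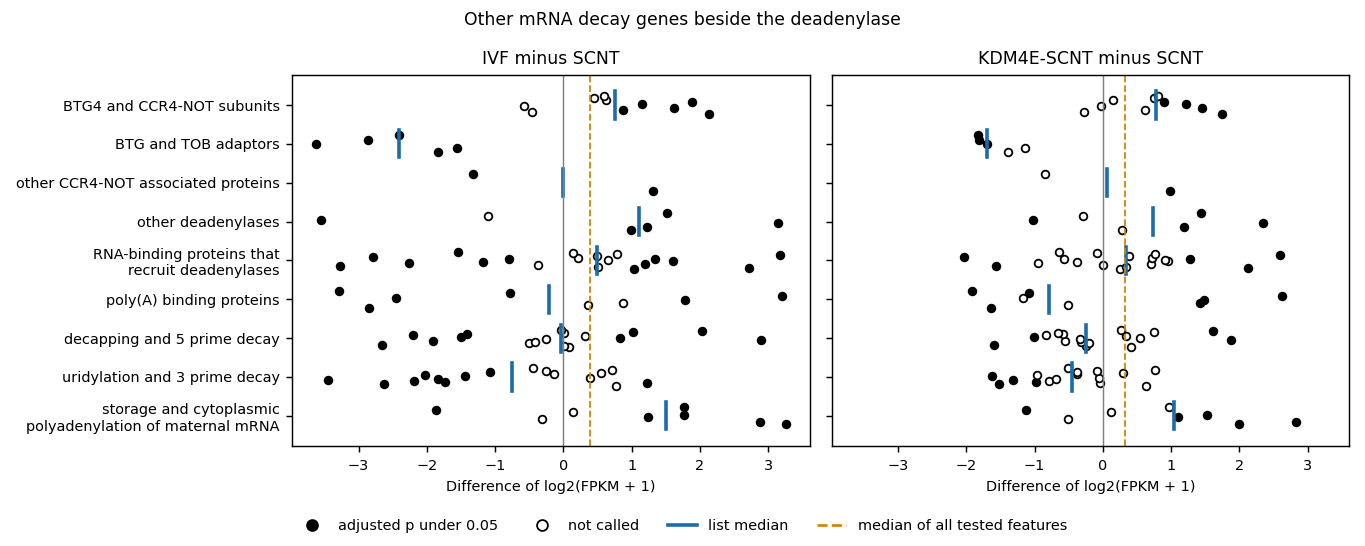
Differences of log2(FPKM + 1) for the members and for 8 lists of other genes, in IVF minus SCNT (left) and KDM4E-SCNT minus SCNT (right). The lists cover mRNA decay and also poly(A) binding, storage and cytoplasmic polyadenylation. Points are genes, filled at an adjusted p under 0.05, short bars are list medians and dashed lines the median over all features. All 5 BTG and TOB adaptors lie left of 0, while BTG4 lies at 2.13 and 1.74.

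The genes whose pattern over the 8 libraries was most like that of BTG4 were RBPMS (Pearson's r = 0.999), VEZF1 (0.996), TRIM59 (0.993), JOSD1 (0.993) and TSPAN19 (0.993), among 3432 named genes with a mean log2(FPKM + 1) of at least 4. Such likeness was common, since 651 of these genes had r over 0.9, and all share the same libraries and the same gap between groups. RBPMS stood at 635, 833 and 547 FPKM in IVF, 52.9, 169 and 110 in SCNT and 430 and 545 in KDM4E-SCNT, with replicate 2 the highest of IVF and of SCNT, as in BTG4. For CNOT6L the most alike were C15H11orf52 (0.986), RABGAP1 (0.986), AAGAB (0.980), SLC4A1AP (0.979) and BTRC (0.979), and 240 genes had r over 0.9.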

How the data were processed

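RNA sequencing was deposited as 8 files, 1 per library, each listing FPKM to 2 decimals for the same 21258 features, per the file headers. The labels' protocols give SuperScript III cDNA synthesis, poly(A) tailing, amplification, Covaris fragmentation and NEBNext libraries. Build UMD3.1 and, with no role or order, RSEM 1.2.12, Bowtie2 2.2.5, StringTie 1.0.4, HISAT 0.1.6 and bcl2fastq 2.16 come from the submitters' processing notes. The deposited FPKM hold no counts, so absolute depth is not given in the sources used here, and the number of libraries limits precision.

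Features with at least 1 FPKM in at least 2 libraries were tested (14839; 6419 set aside; all 10 members kept) as log2(FPKM + 1), which understates changes of low genes. All 8 libraries entered 1 model of group means (limma 3.58.1, R 4.3.3, trend and robust moderation). P-values are two-sided and Benjamini-Hochberg adjusted over all features of a comparison, with calls at an adjusted p under 0.05. Errors are SE, intervals 95%. Scripts were tested on simulated data. Paralogue ratios used exact permutation tests (SciPy 1.17.1).

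Groups come from the sample titles. The members, 8 pathway lists (94 genes, 86 with a row, 81 tested, of these rows 2 named through RefSeq accessions of assembly ARS-UCD2.0) and marker lists were chosen with earlier results of these data known. Of each list, up to 3 genes with the smallest p in IVF minus SCNT and up to 2 in KDM4E-SCNT minus SCNT are named; BTG1, BTG2 and TNKS1BP1 were named after their values were seen. A gene that this rule names is not reported here. Genes most like BTG4 and CNOT6L were ranked by Pearson's r. Alternatives were the pseudocount, filters, scalings, the fit's libraries, moderation, a replicate block and leaving out each library.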

Additional observations from a re-analysis of the deposited data

How the results depend on the processing

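The count of members called between IVF and SCNT was 4 to 6 over all 18 alternatives, against 5. Between KDM4E-SCNT and SCNT it was 2 under each of upper-quartile scaling and median-ratio scaling, and 1 to 4 with 1 library left out, against 4. Between KDM4E-SCNT and IVF it was 1 under quantile normalization and 0 to 1 with 1 library left out, against 0. The BTG4 differences kept direction and call under all 18 alternatives. Of 483 alternative values for the other members, 440 kept direction and side of the threshold, 22 lost the call, 7 gained it and 14 changed sign, all 14 in comparisons that were not called.

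Signs changed for CNOT6 in KDM4E-SCNT minus SCNT (0.062 with 1 total per library, -0.29 to 0.23 with 1 library left out) and CNOT8 (-0.32 under median-ratio scaling, -0.20 under upper-quartile scaling, -0.14 to 0.43 left out). In KDM4E-SCNT minus IVF they changed for CNOT6L (-0.0222 under quantile normalization, -0.0203 under upper-quartile scaling, -0.0377 with 1 total, -0.19 to 0.31 left out). With 1 library left out they also changed there for CNOT1 (-0.0147 to 0.38), CNOT3 (-0.48 to 0.14), CNOT11 (-0.0301 to 0.45), TOB2 (-0.12 to 1.30), CNOT9 (-0.25 to 1.18), ANGEL2 (-0.27 to 0.12), DAZL (-0.46 to 0.54) and the ratio of CNOT6L to CNOT6 (-0.99 to 0.0286). The cause was not tested. Leaving out a KDM4E-SCNT library leaves 1, which is assumed to vary like the other groups. Under the stricter filter CNOT3 was not tested.

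Between groups, deviations from the group mean had correlations of 0.0065 to 0.123 for libraries with the same replicate number. For libraries with different numbers they were -0.134 to 0.134. Whether replicate numbers pair the libraries was not tested. With the replicate block the member counts were 5, 3 and 0. CNOT7 lost its call in KDM4E-SCNT minus SCNT (0.83, adjusted p = 0.0751). BTG4 kept both calls (2.13 and 1.68). Over all features, calls between KDM4E-SCNT and SCNT were 1575 without KDM4E-SCNT replicate 2, against 4844, and between KDM4E-SCNT and IVF 541 when fitted on those groups alone and 291 without KDM4E-SCNT replicate 1, against 967. The primer of the cDNA synthesis and the absolute depth are not given in the sources used here, so what either limits was not tested.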
